A study of Mus musculus with 11 samples.

Results

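Irx1, Irx2, Pou3f4, Etv1 and Hhex, 5 transcription factors of pancreatic α- and δ-cells, were followed through RNA of GFP-sorted β-cells, and all 5 were found among the 34728 gene symbols measured. The members were taken as a list of gene names. Of the 11 libraries, 3 came from WT mice, 4 from BetaRapKOGFP-/- mice without an insulin pellet (diabetic βRapKOGFP) and 4 from BetaRapKOGFP-/- mice with an insulin pellet (euglycemic βRapKOGFP). All mice were 8 weeks old and of the strain C57BL/6 x 129SV, and the pellet had been in place for 4 weeks. In βRapKOGFP mice Raptor, a component of the kinase complex mTORC1, is deleted by RIP-Cre, a Cre recombinase that the rat insulin promoter drives, and the same Cre switches on GFP at Rosa26. According to the study's methods, the WT littermates carry RIP-Cre and Rosa26 GFP as well and differ at Raptor. GFP therefore stays on in cells in which the insulin promoter was once active, also where they have since changed their hormone. The labels do not say whether the libraries of a group come from separate mice, so the p-values below measure the spread between these libraries.

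The islet holds cell types that each make one main hormone, and each type keeps its identity with its own transcription factors. α-Cells make glucagon and δ-cells make somatostatin. Irx1 and Irx2 are homeodomain factors of the Iroquois family that mouse α-cells express. Pou3f4, also called Brn4, is a POU factor of α-cells that binds the promoter of the glucagon gene. Etv1 is an ETS factor of the PEA3 group, known from neurons and found in islet endocrine cells. Hhex is a homeodomain factor that δ-cells need and that mature α- and β-cells largely lack.

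In the annotation of GRCm38 (GENCODE vM21), Irx1 (ENSMUSG00000060969) lies on the minus strand of chromosome 13 from 71957921 to 71963723. Irx2 (ENSMUSG00000001504) lies on the plus strand of the same chromosome from 72628820 to 72634198, with 665096 bases between the 2 genes. Pou3f4 (ENSMUSG00000056854) is a single exon on the plus strand of chromosome X from 110814280 to 110817207. Etv1 (ENSMUSG00000004151) lies on the plus strand of chromosome 12 from 38779380 to 38870484, and Hhex (ENSMUSG00000024986) on the plus strand of chromosome 19 from 37434810 to 37440731. None of the exon bases of these 5 genes overlaps an exon of another gene. Of the 50-base stretches of their transcripts, 9.05% in Etv1 and 0 to 0.481% in the other members also occur in a transcript of another gene.

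Irx2, Etv1 and Hhex, the 3 members found in every library, had higher means in both mutant groups, and their promoters are shown to compare the bases in front of them. The sequences are from RefSeq (GRCm38.p6), run 5′ to 3′ on the plus strand and end before a start site that RefSeq or GENCODE gives. Those of Irx2 and Hhex lie in front of the gene, and that of Etv1 lies within the span given above, where it overlaps no annotated exon. Capitals mark CG pairs.
Etv1, chr12:38779832-38780081: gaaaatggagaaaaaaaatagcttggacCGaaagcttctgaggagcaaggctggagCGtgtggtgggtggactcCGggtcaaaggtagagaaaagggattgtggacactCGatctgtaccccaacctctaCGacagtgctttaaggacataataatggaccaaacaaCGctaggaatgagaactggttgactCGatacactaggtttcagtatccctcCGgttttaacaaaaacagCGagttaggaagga
Irx2, chr13:72628570-72628819: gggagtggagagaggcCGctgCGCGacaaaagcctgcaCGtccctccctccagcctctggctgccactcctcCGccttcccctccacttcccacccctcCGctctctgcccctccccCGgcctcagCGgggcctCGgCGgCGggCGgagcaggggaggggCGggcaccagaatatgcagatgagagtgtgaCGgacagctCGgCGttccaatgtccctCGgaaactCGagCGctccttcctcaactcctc
Hhex, chr19:37434591-37434809: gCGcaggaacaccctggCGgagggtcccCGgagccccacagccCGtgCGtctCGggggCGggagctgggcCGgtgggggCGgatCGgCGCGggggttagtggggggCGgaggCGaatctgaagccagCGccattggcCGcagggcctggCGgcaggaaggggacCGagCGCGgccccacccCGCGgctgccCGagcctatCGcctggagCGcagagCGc

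The 3 promoters differ in base composition. The 250 bases before the RefSeq start, which in Hhex are more than the 219 shown, hold 9 CG pairs in Etv1, 19 in Irx2 and 32 in Hhex, where the median of 32544 promoter windows of that length is 6. G and C make up 46.4% of the window in Etv1, 68.4% in Irx2 and 76.0% in Hhex, against a median of 52.4%. RefSeq gives Etv1 a further start site, whose window holds 1 CG pair and 44.4% G and C, and part of the 250-base window of Hhex lies in annotated exons of Hhex itself and of Gm38345. The 219 bases shown hold 26 CG pairs. They end before the first exon of Hhex, and exon bases of Gm38345 were not taken out of them. On both strands, 5 motifs were searched: TAATTA, a homeodomain core, which occurs in 4.84% of all windows; CCGGAA, an ETS core (12.1%); ACANNTGT, an Iroquois site (6.34%); ATGCAAAT, the POU octamer (1.62%); and GTAAACA, a forkhead site (3.17%). None of these letters occurred in the windows of Etv1, Irx2, Hhex or Pou3f4, which says only that they are not in these 250 bases.

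Expression is given as FPKM, a fragment count divided by transcript length and by the mapped total of the library. Rptor, the gene of Raptor, was lower in every mutant library than in any WT library. It was at 0.948, 1.36 and 1.79 FPKM in WT, between 0.485 and 0.937 in the diabetic group and between 0.423 and 0.623 in the euglycemic group. The sorted cells carried the β-cell label, with Ins1 at 47726 to 101797 FPKM in every library. The values carry no fragment totals, but among low values of genes with one exon, 92.3 to 97.0% were whole multiples of one step, within 0.02 of a fragment, which corresponds to 9506218 to 16658952 fragments per library. The FPKM of Irx1 and Pou3f4 could be turned back into fragments in this way, and the largest distance from a whole number was 0.00045 fragments. The summed FPKM of endothelial markers was 8.83 to 53.8 in diabetic libraries, against 1.68 to 4.18 in WT and 1.40 to 4.62 in euglycemic libraries, and that of mesenchymal markers was 0.970 to 18.7, against 0 to 0.641 and 0 to 0.398, so every diabetic library was above all others in both. Diabetic replicate 1 was the highest in both and in immune markers (65.3), and euglycemic replicate 4 had the lowest depth and the highest sum of acinar markers (3589, against 3.48 to 33.1 in WT). Some results that turn on these libraries are given with and without them.

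The group means of Hhex, Etv1 and Irx2 stood in one order in all 3 groups. FPKM is a level per length, so the genes can be set side by side. Hhex had the highest mean in WT (1.81 ± 0.815, SD, n = 3), followed by Etv1 (0.653 ± 0.145, SD, n = 3) and Irx2 (0.365 ± 0.160, SD, n = 3). Every WT library had Hhex above Etv1 and Etv1 above Irx2. In diabetic libraries the means were 6.86 ± 3.24 for Hhex, 2.68 ± 0.598 for Etv1 and 1.03 ± 0.336 for Irx2 (SD, n = 4). In euglycemic libraries they were 6.98 ± 5.05, 1.46 ± 0.803 and 1.07 ± 0.800 (SD, n = 4), where Etv1 and Irx2 differed by less than their spread, and in euglycemic replicate 3 Irx2 (2.20) was above Etv1 (1.56). Irx1 stayed at or below 0.399 FPKM and Pou3f4 at or below 0.182 FPKM in every library.

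**Figure D1:**
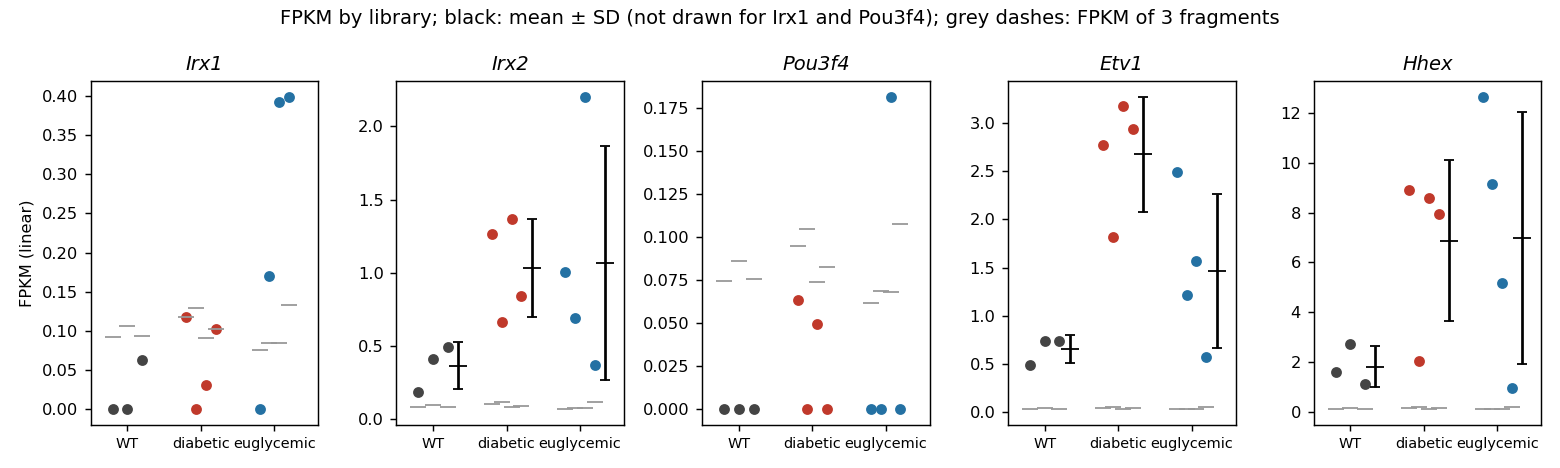
FPKM of each factor (y axis, linear, a scale of its own per gene) in each of the 11 libraries, by group on the x axis; coloured points are libraries, black bars the mean ± SD of the group, and grey dashes the FPKM that 3 fragments give. The 4 diabetic libraries lie above all 3 WT libraries in Irx2 and Etv1, while Irx1 lies clearly above the dashes only in euglycemic replicates 2, 3 and 4 and Pou3f4 only in euglycemic replicate 3.

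The α-cell factor Irx1 was seen in a few fragments. It was listed at 0 in WT replicates 1 and 2 and at 0.0622 FPKM in WT replicate 3, which is 2 fragments. In diabetic libraries it was at 0.117, 0, 0.0305 and 0.102 FPKM (3, 0, 1 and 3 fragments). In euglycemic libraries it was at 0, 0.170, 0.393 and 0.399 FPKM (0, 6, 14 and 9 fragments). Only euglycemic replicates 2, 3 and 4 were above the FPKM that 3 fragments give on the longest coding transcript (none on the shortest), and euglycemic replicate 1, the deepest library, was at 0, so the groups overlap. Summed over a group, Irx1 had 2 fragments in the WT group, 7 in the diabetic group and 29 in the euglycemic group. For every 10000000 fragments sequenced this is 0.510 (exact 95% Poisson interval 0.0618 to 1.84), 1.496 (0.601 to 3.08) and 5.17 (3.47 to 7.43). These intervals cover counting error only, not the spread between libraries. An exact permutation test over libraries, two-sided on log2(FPKM + 1), gave p = 0.371 for diabetic against WT, p = 0.171 for euglycemic against WT and p = 0.171 for diabetic against euglycemic libraries, and p = 0.182 for both mutant groups against WT. The comparison of diabetic with euglycemic libraries gave p = 0.0286 without euglycemic replicate 1, in an exact test where 4 libraries against 3 cannot go lower. That was 1 of 14 alternatives of this exact test, and the other 13 stayed above 0.05, with p up to 0.4.

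Pou3f4 was close to absent at this depth. It was listed at 0 in the 3 WT libraries, in diabetic replicates 2 and 4 and in euglycemic replicates 1, 2 and 4. It was at 0.0635 FPKM in diabetic replicate 1 and at 0.0494 FPKM in diabetic replicate 3, which is 2 fragments in each. Euglycemic replicate 3 had 0.182 FPKM, or 8 fragments, and was the only library above the FPKM of 3 fragments, which ranged from 0.0615 to 0.108. The 0 fragments of the WT group allow a level of up to 0.766 fragments for every 10000000, counted as 3 fragments over the group, and the upper limit of their exact 95% Poisson interval is 0.941. The diabetic and euglycemic groups had 0.855 (exact 95% Poisson interval 0.233 to 2.19) and 1.43 (0.616 to 2.81). The same exact test gave p = 0.429 for diabetic against WT, p = 1.0 both for euglycemic against WT and for diabetic against euglycemic, and p = 0.612 for both mutant groups against WT. A difference in Pou3f4 was not detectable at this depth.

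**Figure D2:**
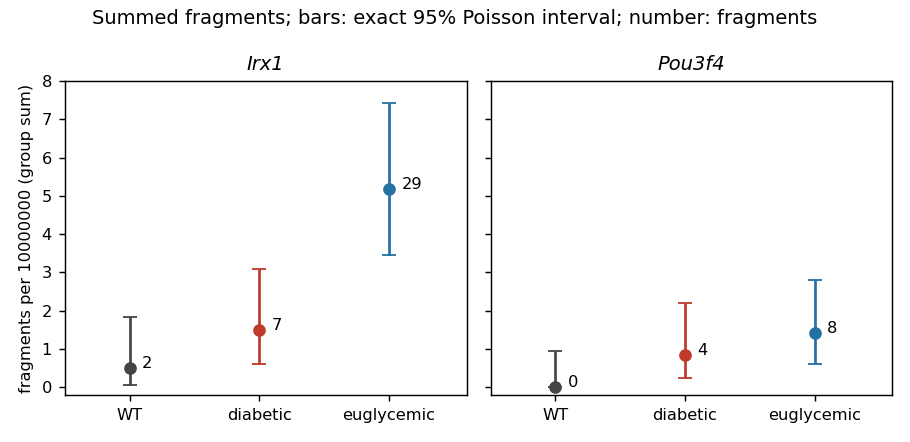
Fragments for every 10000000 (y axis) of Irx1 and Pou3f4 summed over the libraries of each group (x axis), with the exact 95% Poisson interval as bars and the number of fragments beside each point. The euglycemic sum of Irx1, 29 fragments, stands above the 2 of WT and the 7 of the diabetic group, and the intervals of Pou3f4 overlap.

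Irx2 was found in every library. It was at 0.186, 0.415 and 0.494 FPKM in WT, at 1.26, 0.665, 1.37 and 0.840 in diabetic and at 1.01, 0.690, 2.20 and 0.373 in euglycemic libraries. On the longest coding transcript, the WT values correspond to about 6.7, 12.9 and 17.6 fragments, and euglycemic replicate 4 to about 9.3. All 4 diabetic libraries were above the highest WT library, as were 3 of 4 euglycemic libraries, and euglycemic replicate 4 lay within the WT range. Fold changes were estimated with limma on log2(FPKM + 1) over the 11251 genes with at least 1 FPKM in at least 3 libraries, with Benjamini-Hochberg adjustment, and calls needed an adjusted p no higher than 0.05 together with a 1.5-fold change. On this scale, which understates the change of low genes, Irx2 was higher by 0.57 in diabetic (standard error 0.27, adjusted p = 0.428 from limma) and by 0.53 in euglycemic libraries (standard error 0.27, adjusted p = 0.398) than in WT. Neither difference passed. The second was 0.30 without euglycemic replicate 3, the highest of its group, and larger than 0.53 without euglycemic replicate 4, the lowest. The difference between diabetic and euglycemic libraries was 0.035 (95% confidence interval −0.50 to 0.57). Its sign turned without diabetic replicate 1 (−0.021) or 3 (−0.043) or euglycemic replicate 2 (−0.037) or 4 (−0.14). The exact test gave p = 0.0571 for diabetic and p = 0.171 for euglycemic against WT, and p = 0.0485 for both mutant groups together. The last was above 0.05 in 8 of the 11 exact tests that left out 1 library, all but those without diabetic replicate 4, euglycemic replicate 3 or euglycemic replicate 4, and was highest without WT replicate 1 (p = 0.156). Diabetic libraries all above WT libraries were found in 6.67% of the genes tested.

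Etv1 showed the clearest separation of the 5 between diabetic and WT libraries. It was at 0.486, 0.740 and 0.734 FPKM in WT, at 2.78, 1.82, 3.18 and 2.94 in diabetic and at 2.50, 1.22, 1.56 and 0.573 in euglycemic libraries. The lowest diabetic library was above the highest WT library, and euglycemic replicate 4 was again within the WT range. The mean FPKM was 4.10 times that of WT in diabetic and 2.24 times in euglycemic libraries. The log2 difference from WT was 1.14 in diabetic libraries (standard error 0.25, 95% confidence interval 0.59 to 1.69, adjusted p = 0.0563 from limma) and 0.52 in euglycemic libraries (standard error 0.25, 95% confidence interval −0.029 to 1.07, adjusted p = 0.386). The latter was 0.33 without euglycemic replicate 1, the highest of its group, and larger than 0.52 without euglycemic replicate 4, the lowest. The diabetic difference just missed the threshold, and over the alternatives its adjusted p from limma ranged from 0.00456 to 0.190. The 0.190 was with no filter on low values, and Etv1 passed the filter only through mutant libraries. The diabetic difference passed without euglycemic replicate 1 (adjusted p = 0.0434) and without euglycemic replicate 4 (adjusted p = 0.0159), libraries that are not in the comparison and enter through the shared spread. Diabetic libraries exceeded euglycemic libraries by 0.62 (standard error 0.24, 95% confidence interval 0.11 to 1.13, adjusted p = 0.180). Exact tests gave p = 0.0286 for diabetic against WT, the smallest that 4 libraries against 3 allow, p = 0.171 for euglycemic against WT, p = 0.0571 for diabetic against euglycemic and p = 0.0303 for both mutant groups against WT. The last was p = 0.0583 without diabetic replicate 2 and p = 0.0889 without WT replicate 1 in the same exact test. The endothelial and mesenchymal sums were likewise higher in every diabetic library than in any WT library, and their part in the result was not tested.

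Hhex, the δ-cell factor, varied more within groups than Irx2 and Etv1. It was at 1.60, 2.72 and 1.13 FPKM in WT, at 8.90, 2.04, 8.56 and 7.95 in diabetic and at 12.7, 9.14, 5.18 and 0.945 in euglycemic libraries. In each mutant group 3 of 4 libraries were above every WT library, while diabetic replicate 2 lay within the WT range and euglycemic replicate 4 below it. The mean FPKM was 3.78 times that of WT in diabetic and 3.85 times in euglycemic libraries. The log2 difference from WT was 1.38 in diabetic (standard error 0.58, adjusted p = 0.366 from limma) and 1.22 in euglycemic libraries (standard error 0.58, adjusted p = 0.369), and neither passed. The second was 1.79 without euglycemic replicate 4. The standard deviation of Hhex within groups, 0.93 on the log2 scale, was higher than that of 98.2% of the genes tested, whose median was 0.327. Diabetic and euglycemic libraries differed by 0.16 (95% confidence interval −0.996 to 1.31), and by −0.41 without euglycemic replicate 4. The exact test gave p = 0.0857 for diabetic, p = 0.171 for euglycemic and p = 0.0788 for both groups against WT. The last was p = 0.0167 without euglycemic replicate 4 and p = 0.0333 without diabetic replicate 2 in the same exact test. Euglycemic replicate 4 was the lowest of the 11 libraries in Hhex, the second lowest in Etv1 and Irx2 and the highest in Irx1. It is the library with the acinar sum of 3589, and the part of this in the results was not tested. Diabetic replicate 2 had an acinar sum of 986.3, within the 15.6 to 1969 of its group. Libraries with high Hhex also had acinar RNA, with sums of 751.9 in euglycemic replicate 1 (Hhex 12.7) and 1969 in diabetic replicate 1 (Hhex 8.90).

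Across the 4 comparisons, 0 of the 3 members that passed the minimum FPKM were called with limma. Of all genes tested, 0.969% were called between diabetic and WT, 0.551% between euglycemic and WT, 0.00889% between diabetic and euglycemic libraries and 1.05% between both mutant groups and WT. The higher share of these calls was 48.6% between diabetic and WT and 63.6% after rescaling to TPM. It was 50.8% and 61.6% for both mutant groups against WT. Irx2 and Etv1 were below 1 FPKM in every WT library and passed the minimum only through mutant libraries, so a count over the members that passed carries no weight of its own. An unadjusted p of at most 0.05 was found for Etv1 and Hhex in the first comparison, for Etv1 in the third and for Irx2, Etv1 and Hhex in the fourth, where in the 4 comparisons 11.9%, 13.9%, 20.6% and 11.3% of all genes tested had such a p. The comparisons with WT share the same WT libraries, so they are not independent of each other. The exact tests came to 20 in all, of which 3 had p of at most 0.05 without adjustment.

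**Figure D3:**
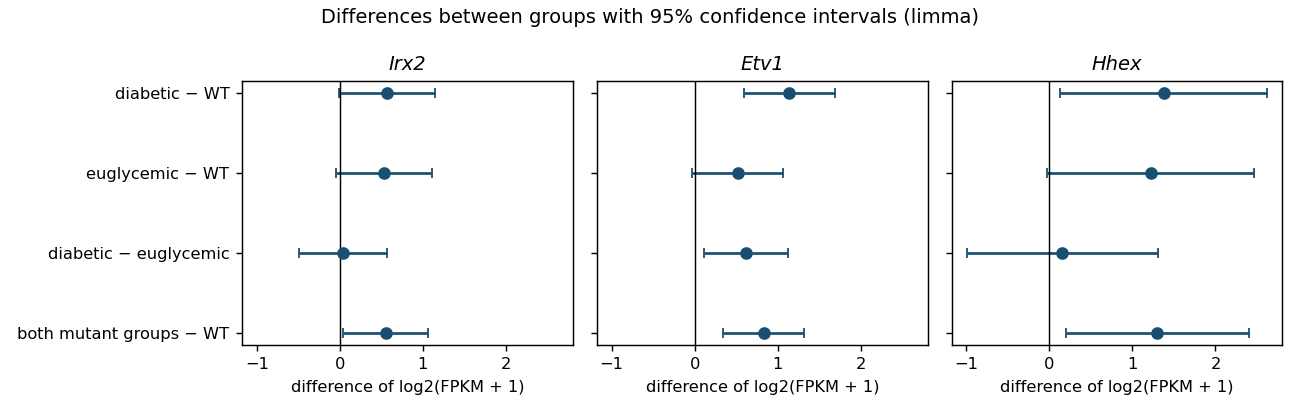
Difference of mean log2(FPKM + 1) between groups (x axis) for Irx2, Etv1 and Hhex in the 4 comparisons (y axis), with 95% confidence intervals from limma. The interval of Etv1 between diabetic and WT libraries, 0.59 to 1.69, lies clear of 0, and those of Hhex are the widest.

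The related factors of the same families were mostly not seen. Irx5 and Irx6 were listed at 0 in every library. Irx3, Irx4, Pou3f2 and Pou3f3 were above 0 only in diabetic replicate 1, at 0.119, 0.0672, 0.632 and 0.314 FPKM, the library with the highest endothelial, immune and mesenchymal marker sums. Pou3f1 was between 0.0312 and 0.761 FPKM and Etv4 was at most 0.198 FPKM. Etv5, like Etv4 a further PEA3 factor, was at 4.62, 4.02 and 7.43 FPKM in WT, at 11.7, 9.26, 11.8 and 6.76 in diabetic and at 4.73, 4.33, 5.13 and 3.36 in euglycemic libraries. All diabetic libraries were above all euglycemic libraries in Etv5, as they were in 6.85% of the genes tested. On the log2 scale diabetic libraries exceeded euglycemic ones by 0.997 (standard error 0.22, adjusted p = 0.122 from limma), which did not pass.

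The hormone genes of α- and δ-cells were at higher levels in every mutant library than in any WT library. Sst, which encodes somatostatin, was at 1149 to 2469 FPKM in WT, at 4868 to 12069 in diabetic and at 4774 to 13782 in euglycemic libraries. Gcg, which encodes glucagon, was at 734.1 to 2116 FPKM in WT, at 3432 to 14073 in diabetic and at 4093 to 22921 in euglycemic libraries. Both were called between euglycemic and WT libraries (log2 difference 2.55, adjusted p = 0.0199, and 3.07, adjusted p = 0.0389, from limma). Of 4 δ-cell markers that are not factors and passed the minimum FPKM, 0 were called between diabetic and WT (3 had an unadjusted p of at most 0.05) and 2 between euglycemic and WT, Sst and Rbp4. Of 7 α-cell markers, 1 was called in diabetic (Gc) and 3 in euglycemic libraries (Gcg, Gc and Slc38a5), all higher, where 0.969% and 0.551% of all genes tested were called. Slc7a2, of the same list, had a log2 difference from WT of −0.43 in diabetic and −0.78 in euglycemic libraries and was not called (adjusted p = 0.489 and 0.171 from limma). Tm4sf4, also of that list and not called, had lower means in diabetic (1188 FPKM) and euglycemic libraries (1343) than in WT (1622). Markers of other cell types differed as well. Both genes of the PP-cell list, Ppy and Pyy, were called higher in diabetic and in euglycemic libraries, with Ppy at 363.6 to 908.8 FPKM in WT and at 3007 to 12190 in the mutant libraries. Of 5 duct markers, 1 was called in diabetic (Spp1) and 2 in euglycemic libraries (Spp1 and Krt19), all higher, with a log2 difference of 2.29 for Krt19 (adjusted p = 0.0149 from limma). The summed FPKM of the duct list was 58.1 to 71.8 in WT, 57.8 to 88.4 in diabetic and 97.1 to 132.7 in euglycemic libraries. Of 2 endothelial markers that passed the minimum FPKM, Plvap was called higher in diabetic libraries (log2 difference 3.29, adjusted p = 0.0177 from limma). Of 7 acinar markers 0 were called, and 5 in diabetic and 1 in euglycemic libraries were higher at an unadjusted p of at most 0.05. Of 3 immune markers, Cd79a, a B-lymphocyte gene, was called lower in both mutant groups (log2 difference −3.12 in diabetic and −3.16 in euglycemic libraries). All 4 euglycemic immune sums were below every WT library, but Cd79a made up most of the WT sums (20.1 of 21.6, 8.20 of 8.28 and 9.22 of 9.53). Of 10 β-cell markers, Slc2a2 and Slc30a8 were called lower in both mutant groups. The part of these cell types in the results was not tested. In bulk RNA, more cells of a type and more RNA per cell cannot be told apart.

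The factors did not keep a fixed ratio to these hormones. For each 1000 FPKM of Sst, WT libraries had 0.861, 1.10 and 0.982 FPKM of Hhex. The ratio was 1.67, 0.419, 1.16 and 0.659 in diabetic and 0.926, 0.663, 0.438 and 0.198 in euglycemic libraries, so diabetic libraries lay on both sides of WT. Diabetic replicate 2 and euglycemic replicate 4, with the lowest Hhex of their groups, also had the lowest ratios. For each 1000 FPKM of Gcg, Irx2 was at 0.215, 0.565 and 0.234 FPKM in WT, at 0.139, 0.145, 0.399 and 0.0597 in diabetic and at 0.246, 0.0886, 0.0961 and 0.0365 in euglycemic libraries. In 3 of 4 diabetic and 3 of 4 euglycemic libraries this ratio was below every WT library. The WT values of Irx2 in these ratios rest on about 6.7 to 17.6 fragments.

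**Figure D4:**
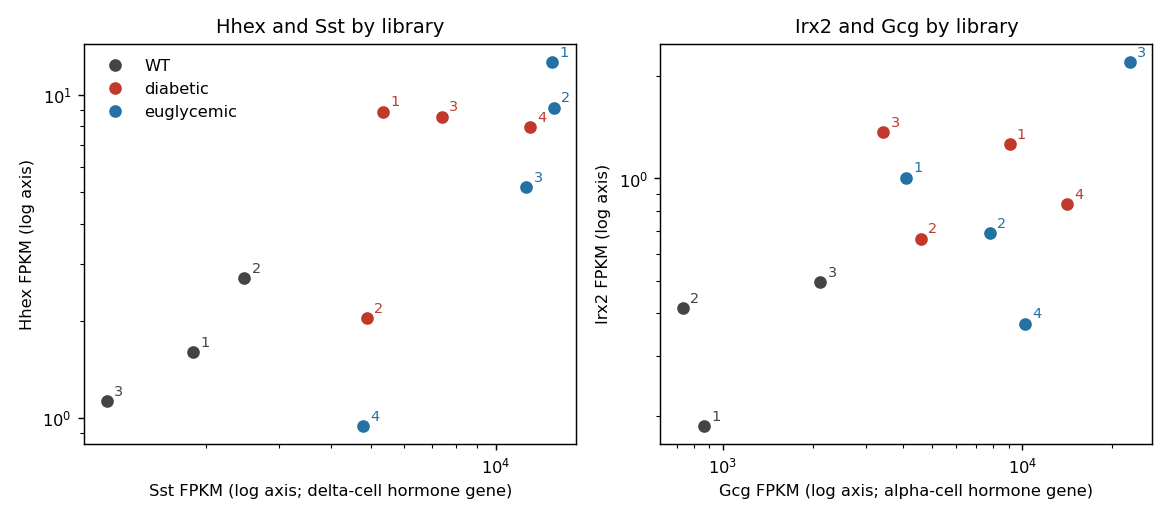
Hhex against Sst (left) and Irx2 against Gcg (right), in FPKM on log axes, 1 point per library with its replicate number and the colour of its group. Mutant libraries lie to the right of all WT libraries in both panels, and diabetic replicate 2 and euglycemic replicate 4 lie low in Hhex for their Sst.

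Over the 11 libraries, which include the group differences and so give a description only, the genes most like each factor were found by Pearson's r on log2(FPKM + 1) among the genes tested. For Irx1 they were Fas (0.919), Tspan4 (0.891) and Cbarp (0.884). For Irx2 they were Id3 (0.904), Id1 (0.851) and Clasp2 (0.851). For Etv1 they were Mboat1 (0.949), Mal2 (0.947) and Olfm3 (0.946). For Hhex they included Fgf12 (0.959) and Neurog3 (0.945), the latter being the factor of endocrine progenitors. The r between Hhex and Sst was 0.792, between Hhex and Etv1 0.810, between Irx2 and Gcg 0.650 and between Irx1 and Gcg 0.728. Pou3f4, above 0 in 3 libraries, was left out. A list of 47 further islet transcription factors was tested alongside, of which 34 passed the minimum FPKM. None of them was called by limma in any of the 4 comparisons, and 6 of 34 had an unadjusted p of at most 0.05 between diabetic and WT libraries (4 higher and 2 lower), 11 between euglycemic and WT (4 higher and 7 lower), 8 between diabetic and euglycemic (8 higher) and 8 between both mutant groups and WT (4 higher and 4 lower). Of all genes tested, 11.9%, 13.9%, 20.6% and 11.3% had such a p in these comparisons.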

How the data were processed

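The authors deposited FPKM values for each gene in each library, made from poly-A, paired-end reads. The study's methods name Tophat and Cufflinks, whereas the submitters' processing notes name HISAT2 2.0.4, StringTie 1.3.0 and mm10; which made the deposited FPKM was not settled. Of 34745 entries, 34267 were matched to a symbol. Duplicate symbols kept the entry with the higher mean. Depth was inferred from the steps of FPKM in 4490 single-exon genes, and a detection floor was set at 3 fragments on the longest coding transcript. limma 3.58.1 (R 4.3.3, eBayes with a trend) was fitted on log2(FPKM + 1) to all 11 libraries, and tested on simulated data. Exact permutation tests, two-sided, covered the 5 members in 4 comparisons. Filter, pseudocount, scaling, trend, weights, block, libraries and threshold were varied. The named genes were the members, their families, hormone and Rptor checks, called genes among other islet factors, the 3 genes most like each member (1 of them is not reported here) and markers beside them. Members and lists were chosen with earlier results of these data known.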

Additional observations from a re-analysis of the deposited data

Results flagged for a closer look

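Each of 24 groups of 4 libraries was checked for a library far from the other 3 in the members, the hormone and Rptor genes and Etv5, a check that chance passes in about 1 in 20 groups, and 3 were marked. Hhex in diabetic replicate 2 was at 2.04 FPKM, against 7.95 to 8.90 in the other diabetic libraries. Pou3f4 in euglycemic replicate 3 was at 0.182 FPKM, with the other 3 listed at 0, where any value above 0 would be marked, so that the chance share does not apply to it. Sst in euglycemic replicate 4 was at 4774 FPKM, against 11827 to 13782 in the other euglycemic libraries.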

How the results depend on the processing

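The genes called between diabetic and WT (109), euglycemic and WT (62), diabetic and euglycemic (1) and both mutant groups and WT (118) numbered 22, 13, 0 and 23 with no filter, 32, 35, 0 and 65 with pseudocount 0.01 and no filter, 551, 2287, 1212 and 1116 with library weights and 929, 1116, 1355 and 779 at unadjusted p. With only the groups compared there were 17 in the second and 6 in the third comparison, and with pseudocount 0.1, TPM or the median of ratios 0 in the third. Leaving out 1 library gave 26 to 210 (highest without euglycemic replicate 4), 12 to 536 and 0 to 378 (both highest without WT replicate 1) and 30 to 177.

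Members called (0 in each) became 1 between diabetic and WT with the median of ratios, library weights, only the groups compared or without diabetic replicate 1 and euglycemic replicate 4 together, an alternative chosen after seeing the data, and 2 at unadjusted p. In all, 128 genes were called with the median of ratios, 149 with only the groups compared and 116 without those 2 libraries. They became 1 between euglycemic and WT with weights, 1 between diabetic and euglycemic at unadjusted p, and for both mutant groups 2 with weights or unadjusted p and 1 without those 2 libraries (144 genes in all). Leaving out 1 library gave 0 to 1, 0 to 0, 0 to 0 and 0 to 1.

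Members with an exact p of at most 0.05 numbered 1 between diabetic and WT, and 2 with log2(FPKM + 0.1) or the median of ratios. They numbered 0 with ranks, without those 2 libraries and leaving out 1 library, where no p of at most 0.05 was possible. The smallest possible p is 0.1 without those 2 libraries and 0.0667 or 0.1 leaving out 1 library. With ranks, a full separation and its reverse give the same difference, which keeps the smallest p of 4 libraries against 3 above 0.05. For both mutant groups the members with an exact p of at most 0.05 numbered 2, 1 on FPKM itself and 0 to 3 leaving out 1 library (0 without WT replicate 1, 3 without euglycemic replicate 4). Leaving out 1 library, they numbered 0 to 1 between diabetic and euglycemic. Between euglycemic and WT they numbered 0 to 0, where the smallest possible p is again 0.0667 or 0.1.

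The difference between diabetic and euglycemic libraries turned for Hhex with weights (−0.21) and without diabetic replicate 1 (−0.00039), euglycemic replicate 4 (−0.41) or both (−0.57), and in the exact test on FPKM itself (−0.12) and ranks (−0.50). For Irx2 it turned without diabetic replicate 1 (−0.021) or 3 (−0.043), euglycemic replicate 2 (−0.037) or 4 (−0.14), or diabetic replicate 1 and euglycemic replicate 4 together (−0.19), and on FPKM itself (−0.034). For Pou3f4 it turned on ranks (0.50) and without euglycemic replicate 3 (0.040). Leaving out 1 library moved it to between −0.41 and 0.57 for Hhex, −0.14 and 0.27 for Irx2 and −0.041 and 0.040 for Pou3f4. The cause was not tested. Under TPM the median of all genes between diabetic and euglycemic libraries was 0.12, against 0.0088.

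Deviations of libraries with one replicate number correlated at −0.132 on average (10 pairs, −0.368 to 0.212). Those with different numbers correlated at 0.0433 (30 pairs, −0.323 to 0.358). The replicate numbers thus gave no sign of pairing, but this was not tested and cannot show whether libraries were paired. With the replicate block the genes called were 45, 20, 0 and 53. On the shortest coding transcript, the FPKM of 3 fragments rose from 0.0933 to 0.444 in Irx1, 0.0843 to 0.493 in Irx2, 0.0337 to 0.407 in Etv1 and 0.123 to 0.154 in Hhex, and all 11 libraries in Irx1, 4 in Irx2 (WT replicates 1 and 2, diabetic replicate 2 and euglycemic replicate 4) and 1 in Etv1 (euglycemic replicate 4) were below it.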
